A study of Oryza sativa with 6 samples.

Results

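4-Coumarate:CoA ligase (4CL) activates hydroxycinnamic acids by joining them to coenzyme A with the use of ATP. It follows phenylalanine ammonia-lyase and cinnamate 4-hydroxylase, and its product p-coumaroyl-CoA is the branch point from which monolignols, the building units of lignin, and flavonoids are both made. Plants carry several 4CL genes, and in rice 4CL3 is the one best known for lignin formation, while 4CL2 is known from anthers and flavonoid synthesis. The 5 rice genes described here are 4CL1 (Os08g0245200, chromosome 8), 4CL2 (Os02g0697400, chromosome 2), 4CL3 (Os02g0177600, chromosome 2), 4CL4 (Os06g0656500, chromosome 6) and 4CL5 (Os08g0448000, chromosome 8). They were taken as every array probe whose name begins with one of these loci, which gave 8 of 42418 gene probes, or 5 of 29689 loci on the array. A single probe reports each of 4CL1, 4CL3 and 4CL5, whereas 4CL4 has 2 probes and 4CL2 has 3.

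RNA came from the mid part of the internode that is second from the top in the rice cultivar Nipponbare, sampled at heading. Wild-type plants were compared with CRISPR/Cas9-induced OsCAld5H1-knockout plants of the T2 generation. OsCAld5H1 encodes coniferaldehyde 5-hydroxylase, the enzyme that leads into the syringyl branch of lignin. Each genotype had 3 biological replicates with 1 single-colour Agilent array each. All knockout replicates carry 1 line name, so they stand for that line, and whether replicates are separate plants is not stated in the labels. The question the design poses for this family is whether its transcripts differ between the genotypes upstream of the edited step.

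Signal is given throughout as the log2 of the scanner's processed intensity minus the 75th percentile of gene spots on the same array, so 0 is the level of that percentile. No gene spot was saturated, and 74.3% to 78.3% of them exceeded background clearly by the scanner software's flag, called well above background here. The 3 wild-type arrays lay on 1 slide and the 3 knockout arrays on the other, so the slide cannot be told apart from the genotype in any value below. The median SD of a probe was 0.253 among knockout and 0.127 among wild-type arrays. Among the knockout arrays replicate 1 stood apart, so values without it are given beside the results it moves. Over the tested probes it correlated at 0.972 with replicate 2 and at 0.968 with replicate 3, and replicates 2 and 3 correlated at 0.984. The probe of the targeted gene read between -0.54 and -0.05 in wild-type and between -4.00 and -1.23 in knockout arrays, and its difference of -1.97 ± 0.70 (SE) had a limma adjusted p of 0.205. Replicate 1 was the lowest of the knockout arrays at that probe. The secondary wall cellulose synthases CESA4, CESA7 and CESA9, which mark the lignifying stem, were well above background on all 6 arrays, as were the photosynthesis genes and the cell division gene checked beside them. Knockout replicate 1 was the lowest of the 6 arrays at all 3 of these wall genes, at 2.06, 3.35 and -3.09 against 2.28 to 2.89, 3.74 to 4.20 and -1.69 to -1.30 on the other arrays. The photosynthesis gene RBCS2 (Os12g0274700) was higher in the knockout arrays by 1.58 ± 0.41 (log2, SE) without overlap, but did not pass (limma adjusted p 0.112). Such non-overlap occurred at 27.0% of all tested probes. The brighter photosynthesis loci Os12g0291100 and Os09g0346500 went the other way, by -0.37 ± 0.25 and -0.21 ± 0.21. Their arrays overlapped between genotypes, and neither passed (limma adjusted p 0.476 and 0.641). The tissue is a mixture of cell types, and fewer cells of a type cannot be told apart from less RNA per cell.

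No 4CL probe passed the test between genotypes. Of the 8 probes, 5 were bright enough to be tested, and 0 of these 5 had an adjusted p under 0.05 by limma with Benjamini-Hochberg adjustment over 32135 probes, of which 3.16% were called. By unadjusted p under 0.05 there was 1 of 5, against 19.1% of all tested probes. The genotypes' arrays did not overlap at 2 of the 5, those of 4CL3 and 4CL1, against 27.0% of all tested probes. At 4CL3 the knockout arrays were the higher ones and at 4CL1 the lower ones. The members' shares rest on few probes and are not far from those of the array as a whole.

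4CL3, the paralogue best known for lignin formation, gave a bright and even signal. Wild-type replicates 1, 2 and 3 read 2.85, 2.77 and 2.88 on the log2 scale, and knockout replicates 1, 2 and 3 read 3.51, 3.15 and 3.15. The wild-type arrays lay within 1.08-fold of each other, every knockout array was above all of them, and replicate 1 was the highest of the knockout arrays. Before scaling, the processed intensity ran from 10251 to 11625 in wild-type and from 13610 to 17123 in knockout arrays. The wild-type SD of 0.055 was small beside the array, since 84.0% of tested probes had an SD at least as large. The difference was 0.43 ± 0.14 (log2, SE, n = 3 per genotype), or 1.35-fold higher in knockout arrays, with a 95% interval of 1.07 to 1.70 times the wild-type level. Its unadjusted p was 0.0185 and its limma adjusted p 0.166, so it did not pass. An absolute difference at least as large was found at 23.0% of tested probes. Without knockout replicate 1 the difference was 0.31 (adjusted p 0.124). It stayed positive under all 15 alternatives, from 0.31 to 0.49, with adjusted p values from 0.124 to 0.434.

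4CL1 differed in the opposite direction and varied more among arrays of 1 genotype. On the log2 scale wild-type replicates 1, 2 and 3 stood at -0.52, -0.22 and 0.61, and knockout replicates 1, 2 and 3 at -1.52, -0.76 and -0.55. The highest knockout array and the lowest wild-type array were almost level, at -0.55 and -0.52. Thus the genotypes stayed apart by a narrow margin, with wild-type replicate 3 and knockout replicate 1 at the ends. Wild-type arrays alone spanned 2.19-fold, and 3.55% of tested probes had a wild-type SD as large as its 0.59. The wild-type mean was -0.04 ± 0.59 and the knockout mean -0.94 ± 0.51 (SD, n = 3 each). The difference of -0.90 ± 0.37 (SE) corresponds to a 1.87-fold lower signal in the knockout, with a 95% interval of 0.286 to 1.00 times the wild-type level. The unadjusted p was 0.0503 and the limma adjusted p 0.262. Absolute differences of at least this size occurred at 6.17% of tested probes. The value depended on single arrays: it was -0.57 without wild-type replicate 3 (adjusted p 0.553) and -0.61 without knockout replicate 1 (adjusted p 0.323). Across the 15 alternatives it ran from -1.14 to -0.57 and kept its sign, with adjusted p values from 0.104 to 0.553.

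**Figure D1:**
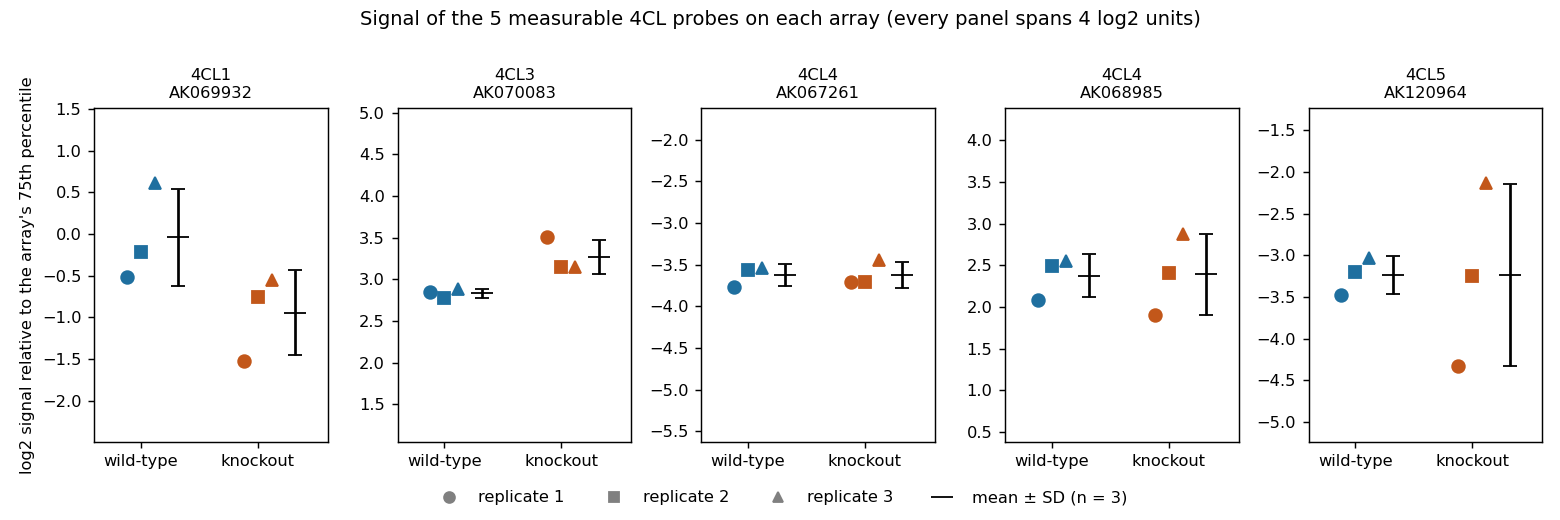
Each panel plots 1 tested 4CL probe, with the log2 signal relative to the array's 75th percentile on the vertical axis and the genotype on the horizontal axis. Points are single arrays, their shape gives the replicate, and black bars are the mean ± SD of 3 arrays. Wild-type and knockout arrays do not overlap for 4CL1 and 4CL3, while they overlap for both 4CL4 probes and for 4CL5, whose knockout arrays run from -4.32 to -2.14.

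4CL4, also known as RAL1 from its role in aluminium resistance, had 2 probes, and both gave nearly equal means in the genotypes. The probe from clone AK068985, annotated to transcript Os06t0656500-01, read 2.08, 2.49 and 2.55 in wild-type replicates 1, 2 and 3 and 1.90, 2.40 and 2.87 in knockout replicates 1, 2 and 3. The knockout arrays enclosed the wild-type ones at this probe, from the lowest in replicate 1 to the highest in replicate 3. Its difference was 0.015 ± 0.27 (log2, SE; limma adjusted p 0.984), and 0.26 without knockout replicate 1 (adjusted p 0.482) or -0.23 without knockout replicate 3 (adjusted p 0.603). The probe from clone AK067261, annotated to transcript Os06t0656500-02, read -3.78, -3.57 and -3.54 in wild-type and -3.71, -3.71 and -3.45 in knockout replicates 1, 2 and 3. Its values overlapped too, and its difference was 0.0043 ± 0.13 (SE; adjusted p 0.990). The signs carry no weight, because that of AK067261 turned with normexp, with quantile normalisation and with the authors' values. The 95% intervals were 0.641 to 1.59 times the wild-type level for AK068985 and 0.803 to 1.25 times for AK067261, so differences inside these ranges could not be told from none with 3 arrays per genotype. The probes differed in how far the arrays lay apart: all 6 spanned 1.96-fold at AK068985 and 1.26-fold at AK067261. Signals of different probes are not set against each other, since probes differ in how well they hybridise.

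4CL5 had equal means but the widest knockout spread of the tested family probes. Wild-type replicates 1, 2 and 3 were at -3.48, -3.20 and -3.03 and knockout replicates 1, 2 and 3 at -4.32, -3.24 and -2.14 on the log2 scale. Knockout replicate 1 was thus below every wild-type array, replicate 2 among them and replicate 3 above all of them. The knockout SD was 1.09 against 0.23 in wild-type, and 2.79% of tested probes had a knockout SD as large. Knockout arrays alone spanned 4.56-fold at this probe. The difference was 0.0027 ± 0.53 (log2, SE; limma adjusted p 0.998), with a 95% interval of 0.414 to 2.43 times the wild-type level. It became 0.55 without knockout replicate 1 and -0.55 without knockout replicate 3, neither past the threshold (adjusted p 0.371 and 0.405). Its sign turned with quantile normalisation, where it was -0.027. The low signal was measured over background on all arrays, with spot medians 4.20 to 15.4 times the local background.

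4CL2 could not be measured in either genotype. None of its 3 probes was well above background on any of the 6 arrays. Their processed intensities, 18 values in all, ran from 1.80 to 10.2, and all 18 were under the lowest gene spot well above background on the same array, which lay between 8.04 and 13.9. The highest value, 10.2, was that of the probe to clone AK060627, annotated to the untranslated region, in knockout replicate 2. This probe read 2.22, 2.36 and 1.80 in wild-type and 2.93, 10.2 and 4.70 in knockout replicates 1, 2 and 3. The probes to AK105636 and L43362, which reach into the coding sequence, stayed between 1.86 and 3.50. The scanner software put the error of these 4CL2 values at 25.0% of the value or more, against 10.0% to 10.8% at the tested probes. No fold is given for 4CL2, since no probe was well above background in either genotype, with spot medians at 1.2 to 1.61 times the local background.

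**Figure D2:**
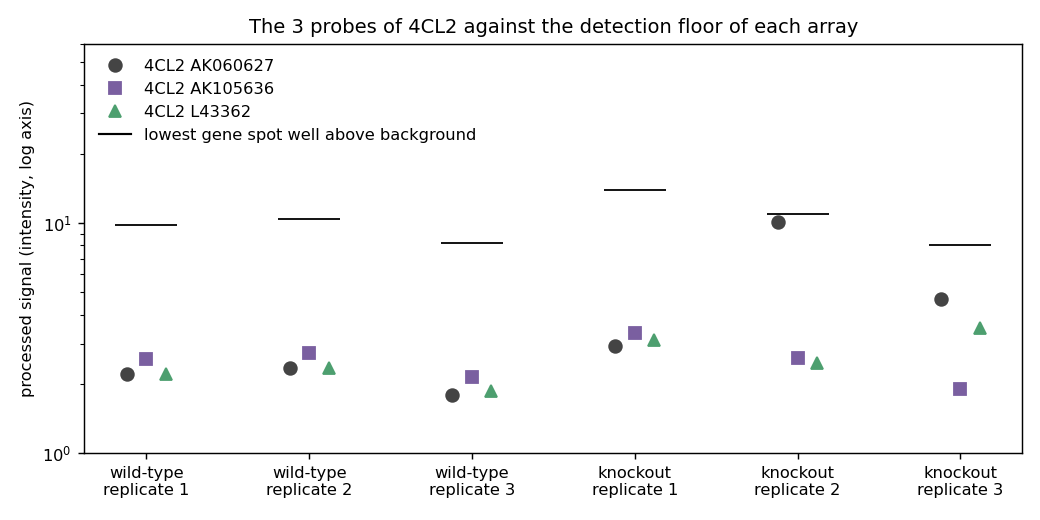
Points are the processed intensities of the 3 4CL2 probes on each array, on a log axis, and black bars mark the lowest gene spot that was well above background on that array. All 18 points lie below their bar, and the nearest is AK060627 in knockout replicate 2 at 10.2 against 11.0.

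The probes of 4CL1, 4CL4 (AK068985) and 4CL5 ranked the replicates alike, rising from replicate 1 to replicate 3 in each genotype, while 4CL3 did not. The other 4CL4 probe, AK067261, rose in wild-type but not from replicate 1 to replicate 2 of the knockout. This order was not particular to 4CL. It was also seen in both genotypes at the pathway loci Os05g0427400, Os02g0611800 and Os08g0441500, though not at others such as Os05g0494000. Its share over all tested probes was not counted. Relative to the mean of its own genotype, knockout replicate 1 was at -0.58 for 4CL1, -0.49 for 4CL4 (AK068985) and -1.09 for 4CL5, but at 0.24 for 4CL3. Knockout replicate 3 was at 0.39, 0.48 and 1.10 for the same 3 probes and at -0.12 for 4CL3. In wild-type, replicate 1 was at -0.48, -0.29 and -0.24 for 4CL1, 4CL4 and 4CL5 and at 0.02 for 4CL3. Replicate 1 of either genotype was thus the lowest array at those 3 probes. In wild-type and knockout alike, replicate 1 was also the lowest array of its genotype at CESA4, CESA7 and CESA9. CESA4 and CESA7 rose from replicate 1 to replicate 3 in each genotype as well, and CESA9 did so in the knockout only. Whether this bears on the 4CL values was not tested.

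Ratios between paralogues within an array, which do not depend on how the arrays are scaled, were compared between genotypes for all 6 pairs of the 4 tested genes, with AK068985 standing for 4CL4. All 3 ratios that hold 4CL1 were lower in the knockout, with no overlap between the arrays of the genotypes. Single probes failed to overlap at 27.0% of all tested probes, and ratios between other genes were not computed. Relative to its wild-type mean, the log2 ratio of 4CL1 over 4CL3 was -0.50, -0.12 and 0.61 in wild-type and -2.15, -1.03 and -0.82 in knockout replicates 1, 2 and 3. Its mean change was -1.33, a 2.52-fold lower ratio. Without knockout replicate 1 it was -0.93. The ratio of 4CL1 over 4CL4 changed by -0.92, with knockout arrays between -1.0 and -0.75, and that of 4CL1 over 4CL5 by -0.90, with knockout arrays at -0.39, -0.71 and -1.61. The change of 4CL1 over 4CL5 was -1.16 without knockout replicate 1 and -0.55 without knockout replicate 3. These 3 ratios share the 4CL1 values and are not independent. The exact two-sided permutation test gave p = 0.1 for each, the smallest that 3 arrays against 3 allow, and 0.2 after Benjamini-Hochberg adjustment over the 6 ratios. No ratio could therefore pass the threshold of 0.05 in this design. The other 3 ratios overlapped between the genotypes: 4CL3 over 4CL4 changed by 0.42 and 4CL3 over 4CL5 by 0.43 (exact permutation p = 0.7 each), and 4CL4 over 4CL5 by 0.012 (p = 1). These 3 depended on single arrays. Without knockout replicate 1 the changes were 0.053, -0.23 and -0.29 in the same order, and without knockout replicate 3 they were 0.72, 1.04 and 0.32.

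**Figure D3:**
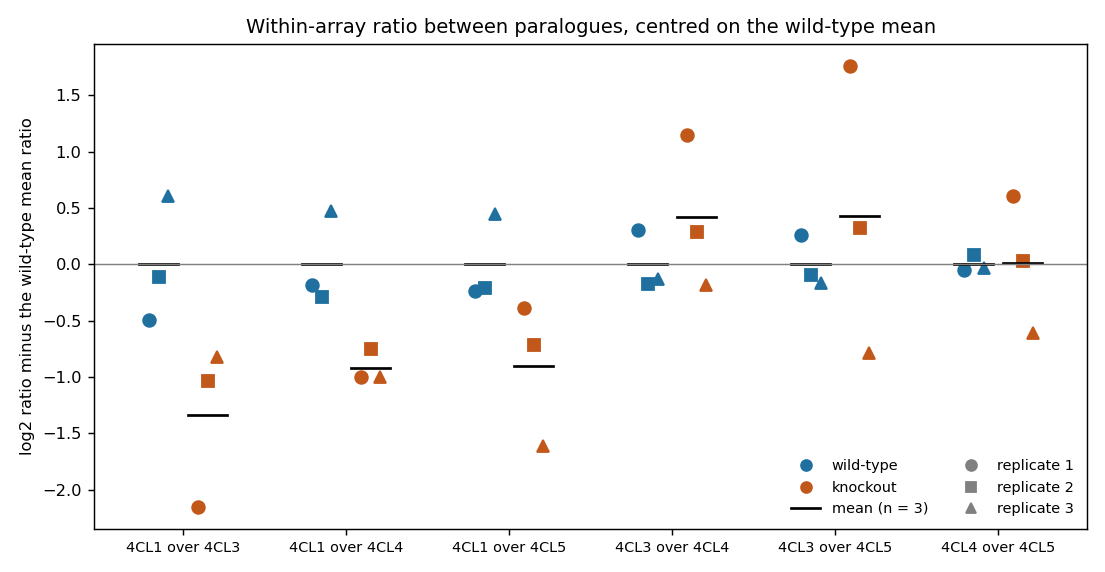
For each pair of tested paralogues, the vertical axis gives the log2 ratio within an array after subtracting the mean ratio of the wild-type arrays. Blue points are wild-type and orange points knockout arrays, shapes give the replicate, and black bars are means of 3. The knockout points lie below all wild-type points in the 3 ratios with 4CL1, and overlap them in the other 3.

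The enzymes around 4CL in the monolignol pathway were described from a list of 30 further loci, of which 25 were tested, the targeted gene among them. Of these 25, 1 rose, 0 fell and 24 did not pass by limma, against 3.41% of 21799 tested loci called in either direction. An unadjusted p under 0.05 was found for 6 of the 25, against 19.6% of tested loci. The targeted gene was 1 of these 6 (unadjusted limma p 0.0291). The median difference of the 25 was 0.08, against 0.0014 over all tested loci. The 1 that rose was the coniferaldehyde 5-hydroxylase homologue Os03g0112900, by 1.03 ± 0.13 (log2, SE; adjusted p 0.0190). This call ended with normexp, with a replicate block and without any 1 of the wild-type arrays. The probe of Os03g0112900 was dim, at -6.33 to -6.24 in wild-type and -5.42 to -5.07 in knockout arrays. The lowest value well above background lay between -7.58 and -6.75, depending on the array. Of the steps before 4CL, phenylalanine ammonia-lyase loci ran from -0.49 ± 0.55 (Os05g0427400) to 0.33 ± 0.28 (Os12g0520200). Cinnamate 4-hydroxylase loci, which make the substrate of 4CL, ran from -1.45 ± 0.98 (Os02g0467000) to 1.01 ± 0.21 (Os01g0820000), none of which passed. The probe of Os01g0820000 was dim too, at -6.28 to -5.66 in wild-type and -5.15 to -4.67 in knockout arrays.

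After 4CL, the hydroxycinnamoyltransferases, which take p-coumaroyl-CoA into the shikimate ester route, differed by -0.11 (Os04g0500700) and 0.24 (Os02g0611800). The coumaroyl ester 3-hydroxylases differed by -0.10 (Os10g0196000) and 0.32 (Os05g0494000). Caffeoyl-CoA O-methyltransferases ran from -0.65 (Os08g0498600) to 0.33 (Os08g0498400), and cinnamoyl-CoA reductases from -0.20 (Os08g0441500) to 0.08 (Os09g0419200). The difference of Os08g0498600 had an SE of 0.66, and its dim probe was well above background on only 5 arrays. In knockout replicate 1 it read -8.00, under that array's lowest value well above background of -6.75. The methyltransferase CAldOMT1 (Os08g0157500) differed by 0.15 and the alcohol dehydrogenase CAD2 (Os02g0187800) by 0.08. None of these passed.

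**Figure D4:**
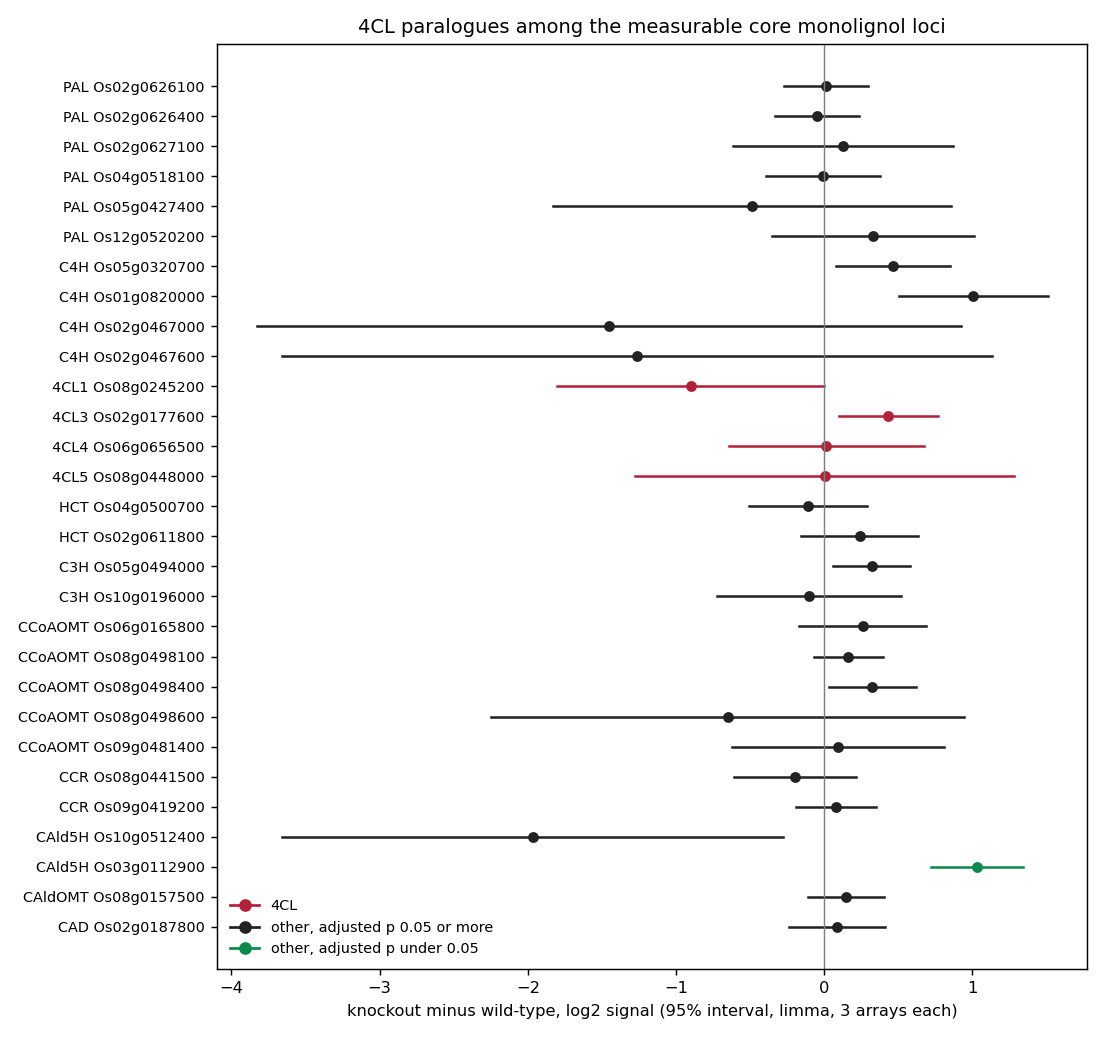
Points are the log2 difference of knockout minus wild-type for each tested locus of the core monolignol list, in pathway order from top to bottom, at its brightest probe, and lines are 95% intervals from limma with 3 arrays per genotype. The 4CL loci are in red, with 4CL3 at 0.43 and 4CL1 at -0.90, and the 1 locus past the threshold, Os03g0112900, is in green at 1.03.

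The loci of this list most like each 4CL gene over the 6 arrays were found by the root mean square (RMS) difference of log2 values after each probe's own mean was removed, over 25 candidates. For 4CL3 they were the coumaroyl ester 3-hydroxylase Os05g0494000 (RMS 0.111) and the caffeoyl-CoA O-methyltransferase Os08g0498400 (0.117), against an RMS of 0.25 for the deviations of 4CL3 itself. For 4CL4 they were the hydroxycinnamoyltransferase Os02g0611800 (0.194) and the caffeoyl-CoA O-methyltransferase Os06g0165800 (0.201), against 0.317 for 4CL4. The phenylalanine ammonia-lyase Os05g0427400 was the nearest to both 4CL1 (0.431, against 0.636 for 4CL1) and 4CL5 (0.362, against 0.645 for 4CL5). Next came the coumaroyl ester 3-hydroxylase Os10g0196000 for 4CL1 (0.462) and the cinnamoyl-CoA reductase Os08g0441500 for 4CL5 (0.511). The likeness is a description over 6 arrays, which share genotype and slide in 2 sets of 3.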

How the data were processed

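The deposited files are scanner output with the intensity of each spot. Per the file headers, Agilent Feature Extraction (version 12.0.3.1, also named in the submitters' processing notes) subtracted background and removed spatial trends in each array, without scaling arrays to each other. The authors' deposited value table holds the same intensity times 1 constant per array (1.51 to 1.72), with column medians of 376 to 388. It is linear and uncentred, and the rule behind the constants is not stated in the labels or files. The number of arrays, 3 per genotype, limits the precision.

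From 43734 gene spots per array, 590 spots of the design's own controls and 5 to 9 outlier spots per array were dropped, and the log2 values of repeated spots were averaged. A probe was tested where over 0.5 of its spots were well above background on all 3 arrays of at least 1 genotype, which left 32135. limma 3.58.1 in R 4.3.3 took genotype as its only term, with Benjamini-Hochberg adjustment over all tested probes and a threshold of 0.05. The brightest tested probe stood for a locus in the pathway list. The script was tested on simulated data with the same spread for all probes and both genotypes. The arrays here differ from that, since knockout arrays were more spread, so the simulation does not cover unequal spread. The main fit did not pair arrays by replicate number.

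Gene names come from prior knowledge of rice loci. All 5 4CL names occur in the reference table (assembly ASM3414082v1) on the chromosome that the locus gives, and both pairs on a shared chromosome run in the order of their identifiers. The names of other listed loci were not checked here. Probe sequences were not used here, so cross-hybridisation among paralogues was not tested. The members and lists were chosen with earlier results of these data known. Named genes were every 4CL probe, the targeted gene, the 2 most alike listed loci per 4CL gene, listed loci past the threshold and the lowest and highest difference per enzyme step.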

Additional observations from a re-analysis of the deposited data

How the results depend on the processing

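No 4CL probe was called under any of the 17 alternatives, and the differences of 4CL1 and 4CL3 kept their sign in all 15 of theirs. The differences near 0 turned sign. That of 4CL4 (AK067261) was -0.066 with normexp, -0.035 with quantile normalisation, -0.0049 with the authors' values and -0.0018 with array weights, and ran from -0.085 to 0.050 when single arrays were left out. That of 4CL5 was -0.027 with quantile normalisation and -0.0064 with the authors' values, and ran from -0.55 to 0.55 without single arrays. Without single arrays, 4CL4 (AK068985) ran from -0.23 to 0.26, the change of the ratio 4CL3 over 4CL4 from 0.053 to 0.72, that of 4CL3 over 4CL5 from -0.23 to 1.04 and that of 4CL4 over 4CL5 from -0.29 to 0.32. The latter was -0.0010 with normexp. The count of called probes was 1017, and 1987 and 127 at thresholds of 0.1 and 0.01, 645 without a filter on dim probes, 458 with a replicate block, and 136 to 1506 without single arrays. The other core monolignol loci called were 1, 0 with normexp, 0 with a replicate block and 0 to 1 without single arrays. The cause of these changes was not tested. With the replicate block the 4CL adjusted p values ran from 0.104 upward, so no call changed. Deviations of same-numbered arrays correlated at 0.41, -0.17 and 0.16 across probes, and those of differently numbered arrays at -0.49 to 0.35. Deviations from means of 3 arrays are tied to each other, so these values do not settle whether the numbers pair the arrays. A slide block was not possible, since no slide holds both genotypes, and signal not well above background limits what can be said of 4CL2.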

Other observations

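Chalcone synthase takes p-coumaroyl-CoA, the product of 4CL, into flavonoid synthesis. The brightest probe of Os11g0530600 read 6.13, 6.11 and 6.24 in wild-type and 6.13, 6.02 and 6.14 in knockout replicates 1, 2 and 3, so the genotypes overlapped (log2 difference -0.06 ± 0.10 SE, limma adjusted p 0.782). The probe of Os07g0214900 read 4.22, 4.13 and 4.30 in wild-type and 3.93, 3.77 and 3.95 in knockout replicates 1, 2 and 3. The knockout arrays were all lower there, but the difference of -0.33 ± 0.11 (SE) had a limma adjusted p of 0.188 and did not pass. Non-overlapping arrays occurred at 27.0% of all tested probes. The names of both loci come from prior knowledge of rice and were not checked against the reference table.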
